A study of Schmidtea mediterranea with 12 samples.

Results

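Lateral intestine was compared with tissue outside the intestine in the planarian Schmidtea mediterranea, transcript by transcript and animal by animal. The comparison used 8 of the 12 libraries of the study, 4 of lateral intestine and 4 of non-intestine, and libraries with the same replicate number came from the same animal, which gave 4 pairs. All transcripts that reached at least 1 CPM, a count scaled to the size of its library, in at least 4 of the 12 libraries were included, and 13136 of the 28069 transcripts counted (46.8%) passed. The animals were uninjured adults of the asexual clonal line CIW4, 6 to 9 mm long and starved for a week, and all groups share that genotype and treatment. Tissue anterior of the pharynx was cut by laser from stained cryosections 20 µm thick, and the sections of an animal were pooled into each library. Lateral intestine is the tissue of the branches at the sides of the gut, medial intestine that near the midline, and non-intestine is a mixture of what the laser took from outside the gut. Since the line is clonal, the spread between replicates is that between 4 animals of the same genotype, and p-values measure no more than that spread.

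The planarian intestine is a blind-ended, branched gut that both digests food and carries nutrients through a body without a circulatory system. Its epithelium holds phagocytes, which take up food particles and break them down within the cell, and goblet cells, which secrete proteins into the gut lumen, while basal cells lie at the outer face of the epithelium, near the surrounding muscle. The tissue outside it includes the nervous system, body wall muscle, a ciliated ventral epidermis, the ciliated excretory system, gland cells and the stem cells with their differentiating progeny. In captures of this kind, a lower level of a transcript can reflect fewer cells of a type or less RNA in each cell, and these cannot be told apart.

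Counts summed to between 21645454 and 33296270 for a lateral library and between 20227187 and 32272982 for a library of non-intestine, and any count at all was seen for 12976 to 14698 transcripts in a lateral library and for 17095 to 18700 in a non-intestine library. Levels are given as CPM after TMM scaling, which adjusts the library totals for differences in composition between libraries. Its factors, which multiply the totals, were 0.794 to 0.985 for lateral and 1.206 to 1.496 for non-intestine libraries, without overlap. Results without TMM scaling rest on the library totals alone, that is, on plain CPM. Levels are not divided by transcript length, since the 3′ protocol reads the ends of transcripts. Fold changes are on the log2 scale as lateral intestine over non-intestine, with an approximate standard error (SE). FDR values come from edgeR's quasi-likelihood test with Benjamini-Hochberg adjustment over all 13136 transcripts. Reads of near-identical transcripts could be divided among them. Names in lower case are those of the study and names in capitals are best matches in other species, human unless stated.

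Marker transcripts of the intestine were looked at first. Of these, hnf-4 and nkx2.2 were known as intestinal markers before the study. Others, such as spint3 and pi16, were picked by the study from transcripts enriched in these same libraries. Their direction was thus fixed in advance and is no independent check of the labels. The transcription factor nkx2.2 (dd_2716) had 91.5, 106, 86.4 and 133 CPM in lateral replicates 1 to 4 and 2.12, 1.52, 2.25 and 3.24 CPM in non-intestine replicates 1 to 4. The nuclear receptor hnf-4 (dd_1694) had 129, 126, 132 and 146 CPM in lateral intestine and 44.4, 41.5, 38.7 and 40.6 CPM in non-intestine, so that its 3.23-fold difference was the smallest among the 12 intestinal markers. All 12 markers, of the whole intestine, of phagocytes, of goblet cells and of basal cells, were called higher in lateral intestine, with log2 fold changes between 1.69 and 7.04, and lateral and non-intestine libraries did not overlap for any of them. Of all tested transcripts, 11.7% were called higher, and 18.7% had every lateral library above every non-intestine library. A further 3 markers belong to the secretory cells around the pharynx. Of these, muc-like-2 (dd_18786) had 2.60, 3.34, 2.22 and 1.27 CPM in lateral intestine and 1.73, 6.39, 0.587 and 27.2 CPM in non-intestine (log2 fold change of -1.93 with SE 0.93, FDR = 0.139), which did not pass the test, and the other 2 were below the filter.

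At thresholds of 0.01 for the FDR and 2-fold for the change, 1543 of the 13136 transcripts (11.7%) were higher in lateral intestine (raised) and 1149 (8.75%) lower (lowered). The remaining 10444 passed in neither direction. The median log2 fold change was 2.21 for the raised transcripts (interquartile range 1.53 to 3.95) and -4.64 for the lowered (-7.60 to -2.32), beside -0.12 for all transcripts tested. A difference of more than 16-fold was fitted for 378 raised transcripts (24.5%) and for 659 lowered transcripts (57.4%). Many of the latter had few or no counts in lateral intestine, and their fitted size then rests on the small constant that edgeR adds to counts. Moreover, 382 of the lowered transcripts passed the filter only through the 4 non-intestine libraries and so had to be low in the intestine. Likewise, 146 of the raised passed only through intestinal libraries, medial ones included, and so had to be low in non-intestine. Through the 4 lateral libraries alone 0 of the raised passed. The count of raised transcripts was 930 without TMM scaling, and that of lowered transcripts was then 2207, so that the share of calls that were raised fell from 57.3% to 29.6%. This share was 46.4% by DESeq2 and 42.5% by limma-voom.

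**Figure D1:**
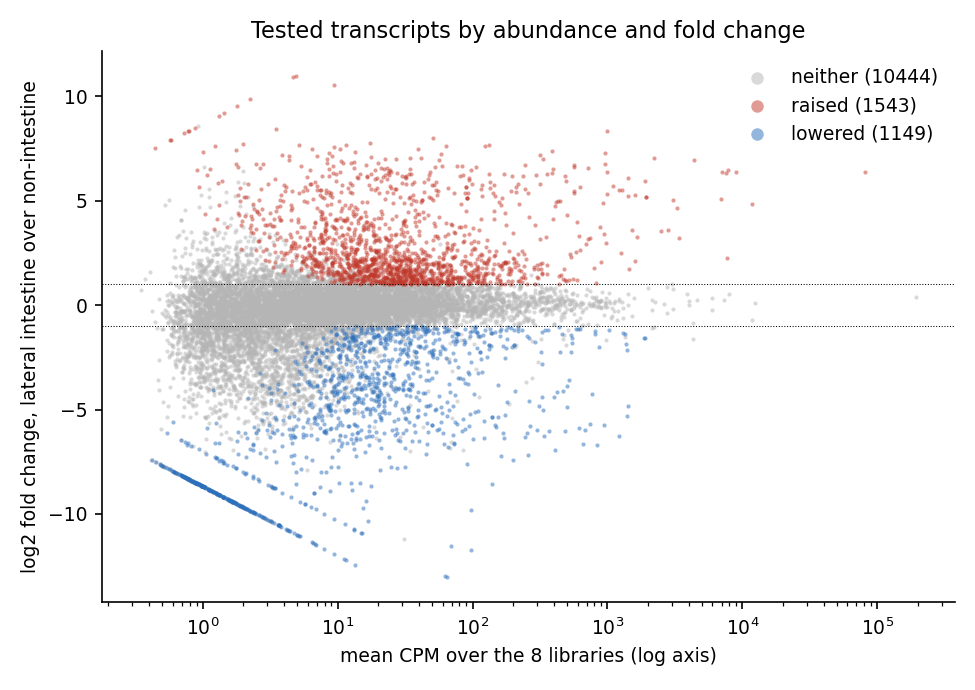
Each point is a transcript of the 13136 tested, with its mean CPM over the 8 libraries on the horizontal log axis and its log2 fold change of lateral intestine over non-intestine on the vertical axis. Red points are the 1543 raised and blue points the 1149 lowered transcripts, dotted lines mark a 2-fold change, and the straight bands at the lower left and upper left are transcripts with no or few counts in a tissue, whose fitted size rests on the small constant added to counts.

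The called transcripts took up very different parts of the libraries of each tissue. Raised transcripts held 40.1, 45.3, 43.1 and 49.0% of all counts in lateral replicates 1 to 4, and 5.86, 5.32, 6.62 and 4.95% in the non-intestine libraries of the same animals. Lowered transcripts held 1.75, 1.77, 1.51 and 1.69% of the counts in lateral intestine and 15.7, 14.2, 16.1 and 14.1% in non-intestine. The tissues did not overlap in either share, and animals differed by less than the tissues did. As the transcripts were called on these libraries, the shares describe them and are no test. Much of the raised share lay in a few transcripts. Over the 4 lateral libraries, 7 transcripts held 50% of the counts of all raised transcripts and 275 held 90%, whereas it took 43 and 397 lowered transcripts to hold 50% and 90% of theirs in non-intestine. A transcript without a name, dd_1, held 11.5 to 17.2% of the counts of a lateral library and 0.156 to 0.469% of those of a non-intestine library. When dd_1 was left out of the counts, raised transcripts held 35.5% of the lateral counts and lowered transcripts 1.95%. The transcript dd_7, which was called in neither direction, held between 11.1 and 26.9% of the counts in the 8 libraries.

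**Figure D2:**
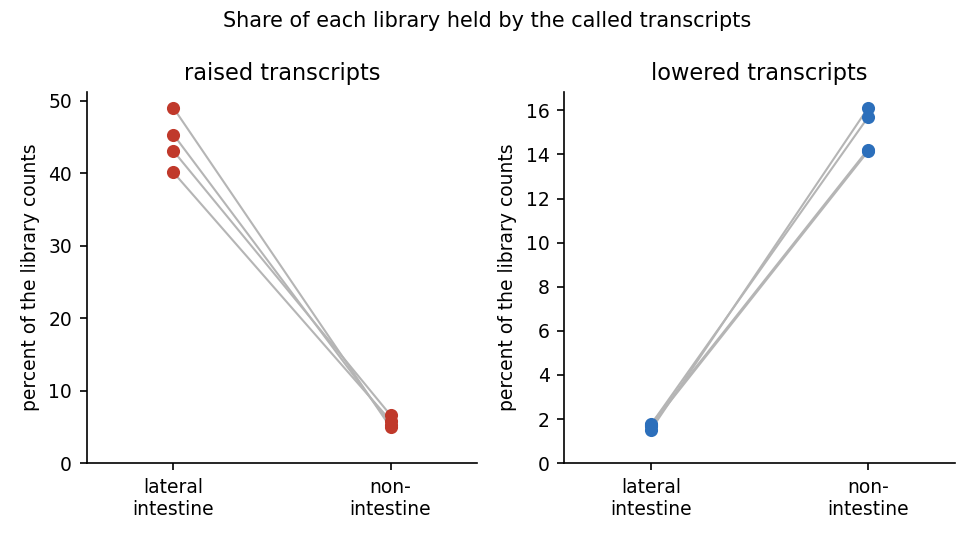
Percent of all counts of a library held by the 1543 raised transcripts (left) and the 1149 lowered transcripts (right), for each of the lateral and non-intestine libraries, with 1 point per library and a line joining the libraries of an animal. Raised transcripts held 40.1 to 49.0% of lateral and 4.95 to 6.62% of non-intestine counts, and lowered transcripts 1.51 to 1.77% and 14.1 to 16.1%, so that every line runs the same way.

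Among raised transcripts, most of the largest differences were those of transcripts nearly silent outside the intestine. The transcript dd_10160 matches SLC39A1, a zinc importer, and had 11.8, 21.0, 23.1 and 19.2 CPM in lateral intestine, with a total of 1783 counts, against 1 library with 1 count in non-intestine. The ratio of these pooled counts was 2505, with a 95% counting interval from 449 to 98988. The Kunitz-type protease inhibitor dd_41 (TFPI) had 559, 3648, 2986 and 686 CPM in lateral replicates 1 to 4 and 2.99, 8.68, 10.5 and 2.33 CPM in non-intestine (log2 fold change of 8.33 with SE 0.92, FDR = 1.02e-05). Its lateral libraries thus spread widely, replicates 2 and 3 being high and replicates 1 and 4 low, and still all lay above every non-intestine library.

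The same high pair of lateral libraries, replicates 2 and 3, was seen in several others of this group. Transcript dd_608, which has no name, had 25, 186, 149 and 45.7 CPM in lateral intestine and 0.166, 0.772, 0.554 and 0.0337 CPM in non-intestine (log2 fold change of 7.99 with SE 0.96, FDR = 2.30e-05). The unnamed dd_1406 had 74.4, 516, 357 and 112 CPM in lateral intestine and 1.20, 1.52, 2.35 and 0.0674 CPM in non-intestine. For dd_2559 (C10orf11), a leucine-rich repeat protein, the levels were 17.7, 62.6, 42.4 and 16.2 CPM in lateral intestine and 0.133, 0.0241, 0.391 and 0.101 CPM in non-intestine. None of these 3 transcripts overlapped between the tissues. For aldh8a1 (dd_1621), an aldehyde dehydrogenase of tryptophan breakdown, the values were 44.1, 221, 184 and 53.2 CPM in lateral intestine and 0.266, 0.748, 1.08 and 0.472 CPM in non-intestine (log2 fold change of 7.60 with SE 0.73, FDR = 3.05e-06). In all 4 of these transcripts, lateral replicates 2 and 3 were the high ones, and the groups did not overlap. By limma-voom, dd_608, dd_1406 and aldh8a1 missed the threshold, at FDR values of 0.0345, 0.0226 and 0.0139.

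More even levels over the 4 lateral libraries were seen in 2 further transcripts of the group. The unnamed dd_8335 had 26.4, 25.9, 19.8 and 19.4 CPM in lateral intestine and 0, 0.0724, 0.293 and 0.0674 CPM in non-intestine (log2 fold change of 7.68 with SE 0.63, FDR = 5.75e-07). The metabotropic glutamate receptor match GRM3 (dd_10130) had 16.8, 24.5, 16.9 and 16.6 CPM in lateral intestine, and in non-intestine it had 0.232, 0, 0 and 0.169 CPM, with 12 counts in all. Its call was lost without animal 3, at an FDR of 0.012, and by limma-voom, at an FDR of 0.0198. The cytochrome P450 match CYP2C18 (dd_14927) had 11, 26.9, 11 and 2.87 CPM in lateral intestine and 0, 0.0482, 0.196 and 0.0337 CPM in non-intestine (log2 fold change of 7.46 with SE 0.89, FDR = 2.19e-05), with lateral replicate 4 well below the other lateral libraries.

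The raised transcripts with the most reads in lateral intestine stood at lower but still easily measured levels outside it. The leading transcript, dd_1, had 152734, 116823, 177644 and 190023 CPM in lateral intestine and 1046, 1652, 3148 and 1924 CPM in non-intestine (log2 fold change of 6.36 with SE 0.38, FDR = 3.14e-08). Next came zgc:172053 (dd_10_1_1), a basal cell marker whose best match is the soluble lectin Collectin-10, at 23882, 16572, 21892 and 28640.2 CPM in lateral intestine and 616, 772, 853 and 959 CPM outside it. The levels of dd_75, whose best match is the fly gene CG3884, were 19327, 13992, 14988 and 22572 CPM in lateral intestine and 144, 175, 292 and 234 CPM in non-intestine. These 3 transcripts were each highest in lateral replicate 4 and lowest in lateral replicate 2. The fly match CG44251 (dd_44) had 17220.5, 12241, 12934 and 16968 CPM in lateral intestine and 106, 168, 262 and 196 CPM in non-intestine. For nid2 (dd_25), named after a basement membrane glycoprotein, the levels were 18132, 14259, 15517 and 14143 CPM in lateral intestine and 85.3, 143, 215 and 252 CPM in non-intestine. Log2 fold changes of these 5 transcripts lay between 4.83 and 6.48, and for each of them the lowest lateral library was far above the highest non-intestine library.

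Several of the largest falls in lateral intestine were to no counts at all. Transcript dd_26589 had 33.1, 32.1, 18.3 and 24.8 CPM in non-intestine, 3626 counts in total, and 0 counts in the lateral libraries. Against a floor of 3 counts over the 4 lateral libraries, it was at least 860.4-fold lower. The same floor gave at least 731-fold for dd_9565, 712-fold for dd_6728 and 578-fold for dd_4472, all without lateral counts. Their non-intestine levels were 23.2, 26.0, 15.8 and 27.5 CPM for dd_9565 and 25.7, 29.7, 12.1 and 21.0 CPM for dd_6728. For dd_4472 they were 18.3, 17.0, 16.6 and 22.8 CPM. These limits cover counting error alone, since no molecular identifiers are mentioned for the protocol. None of the 4 has a name in the study's tables as held here.

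Another 2 unnamed transcripts had far more reads outside the intestine. Transcript dd_1041 had 139.9, 132, 98.2 and 150.3 CPM in non-intestine, 17177 counts, against 1 count in lateral replicate 4, which as a ratio is 12227, the 95% counting interval being 2194 to 482978. Transcript dd_518 had 220.1, 186, 127 and 248 CPM in non-intestine and 0.0456, 0.0940, 0.0370 and 0.0422 CPM in lateral intestine, which is 25608 and 5 counts (log2 fold change of -11.71 with SE 0.68, FDR = 2.08e-08).

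Among lowered transcripts with a name, the largest falls included transcripts of cilia. ZMYND12 (dd_10079), a protein of the flagellar axoneme, had 18.9, 19.4, 19.6 and 22.4 CPM in non-intestine and 0, 0.376, 0 and 0 CPM in lateral intestine (log2 fold change of -7.75 with SE 1.09, FDR = 2.88e-04), with counts in lateral replicate 2 alone. RPGRIP1L (dd_11425), a protein of the ciliary transition zone, had 20.6, 28.9, 23.2 and 34.8 CPM in non-intestine and 0.183, 0, 0.555 and 0.506 CPM in lateral intestine (log2 fold change of -6.38 with SE 1.07, FDR = 4.30e-04). The transcript matching C1orf192 (dd_2157), called Flattop in the mouse and known from motile cilia, had 56.7, 83.2, 79.5 and 124 CPM in non-intestine and 3.56, 1.5, 1.3 and 2.95 CPM in lateral intestine (log2 fold change of -5.21 with SE 0.50, FDR = 2.66e-06). These 3 transcripts did not overlap between the tissues. Of the rest, LRRC71 (dd_12043) had 12.5, 12.0, 9.68 and 17.2 CPM in non-intestine and at most 0.222 CPM in a lateral library. GLIPR2 (dd_1988), a CAP-domain protein, had 71.7, 96.9, 50 and 46.7 CPM in non-intestine and 0.593, 1.22, 0.629 and 3.04 CPM in lateral intestine. SMKR1 (dd_10158) had 9.83, 11.2, 10.6 and 14.2 CPM in non-intestine and 0.365, 0, 0.222 and 0 CPM in lateral intestine. The call of SMKR1 was lost without lateral replicate 3 or 4, at FDR values of 0.0132 and 0.0108, and with an animal left out it was no longer tested or missed the threshold.

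The lowered transcripts with the most reads in non-intestine have no names, and they kept reads in lateral intestine. Transcript dd_18 had 2319.7, 2527, 2861 and 1925 CPM in non-intestine and 7.53, 79.5, 22.2 and 17.0 CPM in lateral replicates 1 to 4 (log2 fold change of -6.25 with SE 1.18, FDR = 0.00104). For dd_80 the levels were 2682, 2908, 2655 and 2694 CPM in non-intestine and 13.5, 207, 22.3 and 31.6 CPM in lateral intestine. For dd_55 they were 2862, 2239, 2878 and 3070.5 CPM in non-intestine and 40.5, 249, 29.5 and 72.6 CPM in lateral intestine. In all 3, lateral replicate 2 was several times above the other lateral libraries. The calls of dd_80 and dd_55 were lost with animal 1, 3 or 4 left out, at FDR values up to 0.0228 and 0.0319, and that of dd_18 with animal 1 left out and the same transcripts tested, at an FDR of 0.0107. Smaller differences, of 2.94-fold and 2.99-fold, were found for dd_223, with 2225, 2537, 2778 and 3674 CPM in non-intestine and 1082, 708, 836 and 1191 CPM in lateral intestine (log2 fold change of -1.55 with SE 0.21, FDR = 6.24e-05), and for dd_432, with 2317, 2816, 2773 and 3387 CPM in non-intestine and 1340.4, 648, 1031 and 759.6 CPM in lateral intestine (log2 fold change of -1.58 with SE 0.25, FDR = 2.37e-04). Neither passed glmTreat, edgeR's test against the 2-fold change itself, at FDR values of 0.0144 and 0.0247.

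**Figure D3:**
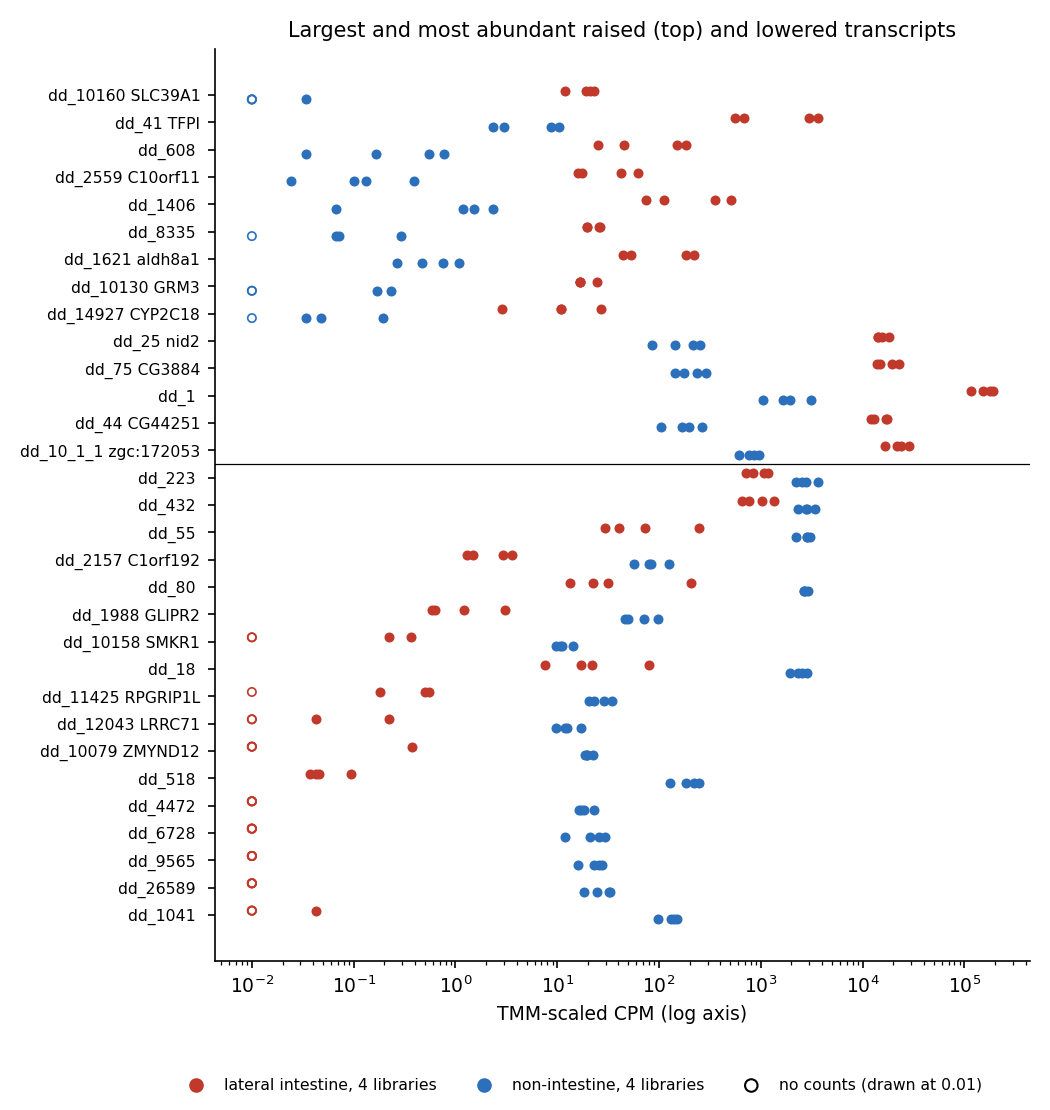
TMM-scaled CPM on a log axis for the raised transcripts (above the line) and lowered transcripts (below it) with the largest fold changes or the most reads, with 1 point for each of the 4 lateral (red) and 4 non-intestine (blue) libraries and open points for libraries without counts, drawn at 0.01. Red and blue points do not overlap for any transcript shown, and the red points of dd_41, dd_608, dd_1406 and aldh8a1 fall into a high and a low pair.

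Transcripts were then grouped by function through the human reciprocal best matches in the study's table, of which a part was held here, as 14 lists with 440 tested members, MYOD1 standing in 2 of them. The background for their counts is the 11.7% of all tested transcripts that were raised and the 8.75% that were lowered. As the lists were drawn up with earlier results of these data known, their counts describe the lists and are no test. Members that passed the filter only through non-intestine libraries had to be low in lateral intestine, and they were not counted apart. Members named beyond the 3 with the most reads of each list were chosen after their values were seen.

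Lysosomal genes were raised in lateral intestine almost throughout. Of 28 members 25 were raised and 1 was lowered, with a median log2 fold change of 2.2 and summed levels of 7951 to 9315 CPM in lateral against 2200.5 to 2699.7 CPM in non-intestine libraries. The largest difference was that of lipa (dd_122_1_1), lysosomal acid lipase, with 3495, 2302, 1773 and 2371 CPM in lateral intestine and 60.5, 75.8, 40.8 and 43.3 CPM in non-intestine (log2 fold change of 5.50 with SE 0.39, FDR = 1.27e-07). The protease cathepsin C, ctsc (dd_219), had 1369.9, 1265, 1408 and 1337 CPM in lateral intestine and 153, 133, 171 and 122 CPM in non-intestine (log2 fold change of 3.21 with SE 0.17, FDR = 7.12e-09), with all 4 animals close together. The lipid-binding activator GM2A (dd_214_1_1) was at 411 ± 96.1 CPM in lateral intestine and 9.62 ± 3.78 CPM in non-intestine (SD, n = 4 each). All 9 members of the proton-pumping vacuolar ATPase were raised, with log2 fold changes between 1.55 and 2.36. In contrast, the cathepsin match CTSV (dd_175) had 999.7, 547, 909.7 and 903 CPM in lateral and 1134, 1118, 1422 and 1427 CPM in non-intestine libraries and was called in neither direction (log2 fold change of -0.60 with SE 0.22, FDR = 0.0547). The lowered member was the tetraspanin CD63 (dd_2452), at 11 ± 5.99 CPM in lateral intestine and 34.2 ± 8.02 CPM in non-intestine (log2 fold change of -1.63 with SE 0.34, FDR = 0.002), and its call was lost with animal 2, 3 or 4 left out.

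Genes of endosomal sorting and vesicle traffic were raised or passed in neither direction. Of 32 members 16 were raised and 0 lowered by edgeR's quasi-likelihood test (0 lowered at an unadjusted p under 0.05, by DESeq2 and by limma-voom), with a median log2 fold change of 1.13. The small GTPase RAB32 (dd_1037), which acts in the biogenesis of lysosome-related organelles, was at 166 ± 25.9 CPM in lateral intestine and 30.3 ± 6.11 CPM in non-intestine (log2 fold change of 2.45 with SE 0.19, FDR = 2.82e-07). CHMP2B (dd_1514), a subunit of the ESCRT-III complex that sorts membrane proteins into multivesicular bodies, was at 141 ± 20.9 CPM in lateral intestine and 32.6 ± 1.77 CPM in non-intestine (log2 fold change of 2.11 with SE 0.15, FDR = 1.84e-07). The ESCRT-III member CHMP5 (dd_1158) had 347, 294, 263 and 291 CPM in lateral intestine and 129.8, 129, 124 and 158 CPM in non-intestine (log2 fold change of 1.14 with SE 0.15, FDR = 4.54e-05). Its fold was close to the threshold and fell below it with RLE size factors, with DESeq2 and without non-intestine replicate 1 or 3. The count of raised members was 6 without TMM scaling and 7 by glmTreat.

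Genes of amino acid, carbohydrate and lipid metabolism were divided. Of 47 tested members 22 were raised, 3 were lowered and 22 passed in neither direction, with a median log2 fold change of 0.93. Successive enzymes of histidine breakdown were raised. Histidine ammonia-lyase HAL (dd_2219) was at 175 ± 17.4 CPM in lateral intestine and 3.41 ± 0.969 CPM in non-intestine (log2 fold change of 5.67 with SE 0.25, FDR = 1.88e-09), and uroc1 (dd_1655), urocanate hydratase, had 296, 273, 333 and 324 CPM in lateral intestine and 9.49, 8.34, 14.9 and 7.38 CPM in non-intestine (log2 fold change of 4.93 with SE 0.26, FDR = 8.17e-09). Raised as well were glycine N-methyltransferase GNMT (dd_1127, log2 fold change 4.82), the acyl-CoA synthetase ACSL6 (dd_2009, 4.33) and the pyrimidine-degrading enzyme DPYD (dd_2037, 3.59). Sorbitol dehydrogenase SORD (dd_1002) had 258, 309, 403 and 308 CPM in lateral intestine and 45.1, 57.0, 58.6 and 51.8 CPM in non-intestine (log2 fold change of 2.59 with SE 0.17, FDR = 6.55e-08). The 3 lowered members were choline dehydrogenase CHDH (dd_1744), at 4.24 ± 2.55 CPM in lateral intestine and 23.4 ± 9.07 CPM in non-intestine, tyrosine aminotransferase TAT (dd_1073), at 40.3 ± 9.95 CPM in lateral intestine and 86.4 ± 8.13 CPM in non-intestine, and the ketone body enzyme OXCT1 (dd_1189), at 67.6 ± 7.03 CPM in lateral intestine and 142 ± 9.66 CPM in non-intestine. Of these, 1 was left without animal 1 or without animal 3.

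Membrane transporters showed no common direction. Of 33 tested members of 40, 10 were raised and 2 were lowered, and 21 passed in neither direction, the median log2 fold change being 0.20. By limma-voom 10 were raised and 7 lowered. The retinol uptake receptor STRA6 (dd_10051) was raised, at 14.2 ± 6.57 CPM in lateral intestine and 0.749 ± 0.530 CPM in non-intestine (log2 fold change of 4.25 with SE 0.54, FDR = 3.60e-05), as was the cation-chloride cotransporter relative SLC12A9 (dd_1738), at 40.5 ± 19.3 CPM in lateral intestine and 4.20 ± 2.65 CPM in non-intestine (log2 fold change of 3.26 with SE 0.54, FDR = 3.67e-04). The phosphate transporter SLC20A1 (dd_1270) went the other way, with 18.7, 28.6, 17.4 and 11.6 CPM in lateral intestine and 99.6, 111, 89.0 and 84.1 CPM in non-intestine (log2 fold change of -2.33 with SE 0.28, FDR = 2.03e-05). The other lowered member, SLC43A3 (dd_14253), had no counts in lateral intestine and 1.72 ± 0.345 CPM in non-intestine. With the animal as a block in the model, or with any animal left out, 1 of the members was lowered. Without TMM scaling 6 were raised and 4 lowered, and the list's median turned negative. The member with the most reads, SLC17A9 (dd_1326), a vesicular nucleotide transporter, had 301, 265, 249.8 and 336 CPM in lateral intestine and 172, 146, 153 and 176 CPM in non-intestine and stayed under the 2-fold threshold (log2 fold change of 0.83 with SE 0.15, FDR = 8.50e-04).

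Genes of basic cell functions did not pass the thresholds. None of the 36 tested genes of the secretory pathway, 18 of the respiratory chain, 26 of the proteasome and 48 of the cytosolic ribosome was called in either direction by edgeR's quasi-likelihood test, by its likelihood ratio test, by DESeq2 or by limma-voom. At an unadjusted p under 0.05, 7 genes of the secretory pathway were higher and 2 lower in lateral intestine, 4 and 0 of the respiratory chain, 2 and 1 of the proteasome, and 4 and 0 of the ribosome. Without TMM scaling, 4, 1, 3 and 1 genes of these lists were lowered, and with the animal as a block in a fit of the 8 libraries 1 gene of the respiratory chain and 1 of the ribosome were raised. Median log2 fold changes were 0.06, 0.21, -0.10 and 0.04. Relative to the median of all tested transcripts they were 0.18, 0.33, 0.02 and 0.16, and they stayed above 0 under each of 3 other scalings, whereas the medians themselves turned negative for the secretory pathway and the ribosome with RLE size factors, and for the respiratory chain as well without TMM scaling. At the level of genes, the calcium-binding chaperone CALR (dd_220) had 1112, 701, 1043 and 1495 CPM in lateral intestine and 779, 756, 893 and 1056 CPM in non-intestine (log2 fold change of 0.32 with SE 0.22, FDR = 0.316). Its libraries overlapped between the tissues.

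Genes of cilia were lowered or passed in neither direction. Of 51 tested members of 57, 13 were lowered and 0 raised by edgeR's quasi-likelihood test (0 raised at an unadjusted p under 0.05, by DESeq2 and by limma-voom), and the median log2 fold change was -3.47. For 45 of the 51 every lateral library was below every non-intestine library, beside 24.4% of all tested transcripts. Of the members, 4 had no lateral counts, and ZMYND12 passed the filter only through the 4 non-intestine libraries. Members that passed in that way had to be low in lateral intestine, and the 45 include any such members. Summed levels were 133 to 162 CPM in lateral and 441 to 629 CPM in non-intestine libraries. The axonemal protein TEKT2 (dd_2339) had 2.37, 1.74, 0.814 and 1.10 CPM in lateral intestine and 29.3, 38.2, 25.6 and 49.2 CPM in non-intestine (log2 fold change of -4.56 with SE 0.89, FDR = 0.00139), and the dynein light chain DNAL4 (dd_2487) had 3.97, 1.69, 4.22 and 1.6 CPM in lateral intestine and 20.6, 36.6, 35.0 and 32.1 CPM in non-intestine (log2 fold change of -3.43 with SE 0.64, FDR = 9.33e-04). Both calls were lost with animal 4 left out, at FDR values of 0.0164 and 0.0114. In contrast, DYNLRB2 (dd_1126), another dynein light chain, had 78.0, 99.8, 103 and 89.4 CPM in lateral intestine and 91.5, 114, 127 and 124 CPM in non-intestine and passed in neither direction (log2 fold change of -0.30 with SE 0.16, FDR = 0.172). Most members had few reads, with a median level of 4.86 CPM in non-intestine, and the count of lowered members moved with the method. It was 39 by limma-voom, 27 by DESeq2, 22 by the likelihood ratio test, 23 when the 8 libraries were fitted alone and 21 without TMM scaling. With an animal left out it was between 3 and 7 when the same transcripts were tested. It was between 1 and 4 when the filter was applied anew.

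Calls among neuronal genes were fewer and also all in the lowered direction. Of 40 tested members of 52, 6 were lowered and 0 raised by edgeR's quasi-likelihood test (2 raised at an unadjusted p under 0.05, 1 by DESeq2 and 0 by limma-voom), and the median log2 fold change was -1.65. Lowered members were 11 at an FDR under 0.05, 11 by DESeq2 and 16 by limma-voom. Summed levels were 102 to 121 CPM in lateral and 254 to 294 CPM in non-intestine libraries. The prohormone convertase PCSK2 (dd_1566), which processes neuropeptides, had 2.97, 7.75, 2.63 and 0.802 CPM in lateral intestine and 66.5, 53.6, 49.6 and 61.1 CPM in non-intestine (log2 fold change of -4.03 with SE 0.63, FDR = 2.36e-04). Acetylcholinesterase ACHE (dd_10334) was at 0.0117 ± 0.0235 CPM in lateral intestine and 3.31 ± 1.16 CPM in non-intestine, and the voltage-gated sodium channel SCN9A (dd_13973) at 0.0738 ± 0.148 CPM in lateral intestine and 6.23 ± 1.51 CPM in non-intestine. The vesicle priming factor CADPS2 (dd_11725) had 5.16, 6.48, 5.96 and 7.85 CPM in lateral intestine and 17.3, 15.3, 17.6 and 17.3 CPM in non-intestine (log2 fold change of -1.41 with SE 0.35, FDR = 0.00706), and its call was lost in 13 settings that left out an animal or a library and with the animal as a block, at an FDR of 0.0154. With that block 3 members were lowered, the block in a fit of the 8 libraries gave 1 raised member, and 1 member was lowered without animal 1 or without animal 3. Of 18 receptors coupled to G proteins 6 could be tested and 0 were called in either direction by edgeR, DESeq2 or limma-voom, with 0 at an unadjusted p under 0.05 and a median log2 fold change of -1.5.

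Developmental transcription factors of the homeobox, forkhead and bHLH families mostly fell below the filter, and 13 of 43 could be tested. By edgeR's quasi-likelihood test 4 of the 13 were lowered and 0 raised (0 raised at an unadjusted p under 0.05, by DESeq2 and by limma-voom), with a median log2 fold change of -2.80. The lowered ones were TLX2 (dd_13781), NKX6-1 (dd_12873) and the muscle determination factor MYOD1 (dd_12634), all without counts in lateral intestine, and PAX5 (dd_10219), with 0, 0.141, 0 and 0 CPM in lateral intestine and 5.21, 4.53, 3.26 and 7.95 CPM in non-intestine. Non-intestine levels were low as well, at 3.18 ± 0.150 CPM for TLX2, 1.79 ± 0.598 CPM for NKX6-1 and 1.51 ± 0.628 CPM for MYOD1. PAX5, with at most 0.383 CPM in a medial library, passed the filter only through the 4 non-intestine libraries. It thus had to be low in the intestine. TLX2, NKX6-1 and MYOD1 could pass only through non-intestine or medial libraries, so that the filter favoured their direction. The achaete-scute match ASCL4 (dd_1854), a bHLH factor, had 28.9, 23.2, 24.8 and 9.62 CPM in lateral intestine and 64.0, 55.9, 63.7 and 45.5 CPM in non-intestine, which did not overlap, and missed the threshold (log2 fold change of -1.40 with SE 0.50, FDR = 0.0442). With the animal as a block it passed, at an FDR of 0.00475, and PAX5 did not, at an FDR of 0.0103. ASCL4 passed as well by DESeq2, at an FDR of 0.00387, and by limma-voom, at an FDR of 0.00326. It also passed in the fit of the 8 libraries alone, at an FDR of 0.00472, and without TMM scaling, at an FDR of 0.00425. By the likelihood ratio test and with RLE size factors it did not pass. Lowered members were 6 by DESeq2 and 7 by limma-voom. With that block 2 members were called, and 0 to 2 with an animal left out and the same transcripts tested.

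Genes of muscle and extracellular matrix were found on both sides, with 4 of 20 raised, 4 lowered and a median log2 fold change of -0.51. Their summed levels overlapped, at 986 to 1067 CPM in lateral and 819 to 1039 CPM in non-intestine libraries. The collagen cross-linking enzyme LOXL2 (dd_10591) was raised, at 26.4 ± 5.64 CPM in lateral intestine and 0.278 ± 0.267 CPM in non-intestine (log2 fold change of 6.58 with SE 0.58, FDR = 1.12e-06), and so were the actin capping proteins CAPZA2 (dd_2399, log2 fold change 1.74) and CAPZB (dd_1165, 1.21). Without TMM scaling 1 of the 4 raised members was called. Lowered were the nuclear envelope protein SYNE1 (dd_15904, -5.00), alpha-actinin ACTN4 (dd_1951, -1.40), hemicentin HMCN1 (dd_1161, -1.25) and MYOD1, and of these 4, 0 were called without animal 4, without lateral replicate 3 or 4 or without non-intestine replicate 4. A block for the animal left 2. The basement membrane collagen COL4A5 (dd_1579) had 343, 169.7, 211 and 215 CPM in lateral intestine and 247, 299, 215 and 394 CPM in non-intestine, which overlapped (log2 fold change of -0.30 with SE 0.27, FDR = 0.461). The part of muscle reads in the other results was not tested.

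Genes of the cell cycle and of DNA replication, which are active in the stem cells that lie outside the intestine, passed the thresholds in 1 case. Of 42 tested members 1 was lowered and 0 raised by edgeR's quasi-likelihood test (0 raised at an unadjusted p under 0.05, by DESeq2 and by limma-voom), and the median log2 fold change was -0.33. The lowered member was RRM2 (dd_2286), a subunit of ribonucleotide reductase, with 30.2, 21.9, 23.5 and 27.4 CPM in lateral intestine and 62.8, 51.7, 72.8 and 68.6 CPM in non-intestine (log2 fold change of -1.31 with SE 0.26, FDR = 0.00147). Its call was lost without animal 1, at an FDR of 0.0113, and without animal 3, at an FDR of 0.0109. The count was 6 without TMM scaling and 2 with a block for the animal. PIWIL1 (dd_1258), a match of the planarian PIWI proteins of stem cells, had 199, 116, 137 and 139 CPM in lateral intestine and 275, 229, 257 and 218 CPM in non-intestine and did not overlap between the tissues, but it stayed under the 2-fold threshold (log2 fold change of -0.73 with SE 0.18, FDR = 0.00644). Summed levels of the list were 403 to 495 CPM in lateral and 629.6 to 718 CPM in non-intestine libraries.

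**Figure D4:**
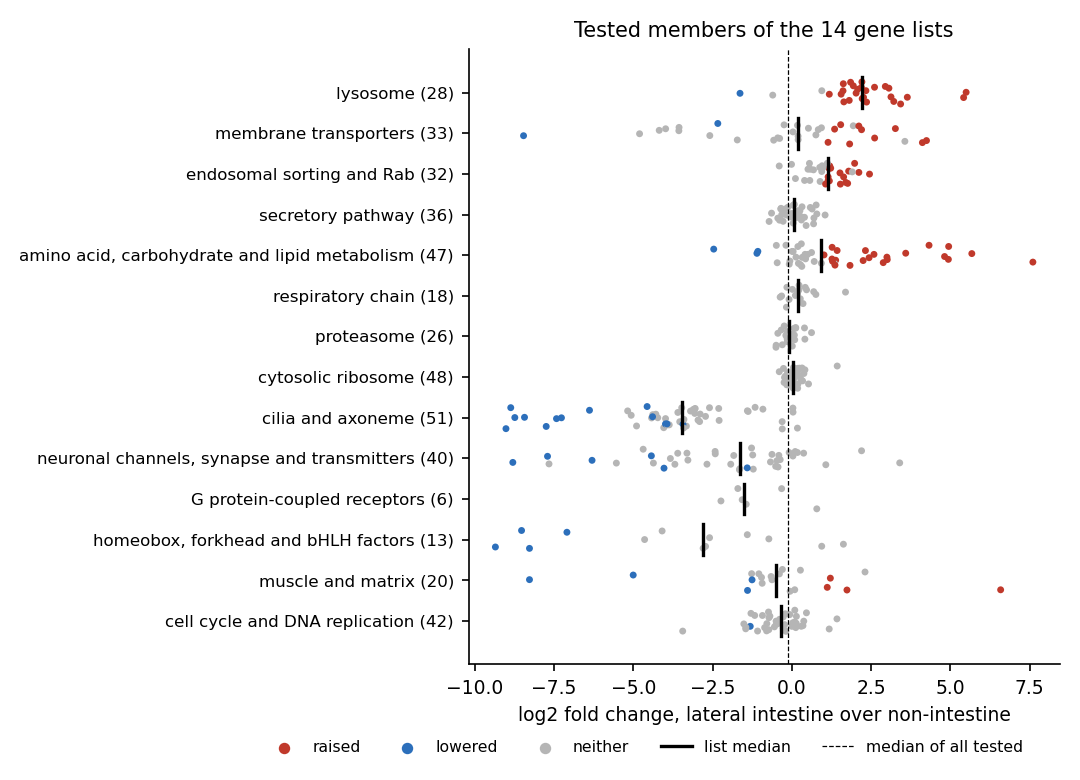
Log2 fold change of lateral intestine over non-intestine for every tested member of the 14 gene lists, with the number tested in parentheses, points in red where raised, in blue where lowered and in grey where neither. Black bars are list medians, from 2.2 for the lysosome to -3.47 for cilia, and the dashed line is the median of all tested transcripts, -0.12. Members without lateral counts, at the far left, have fitted values that rest on the constant added to counts, and with these at their bounds the list medians are the same to 2 decimals.

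The 4 animals agreed in direction for nearly all called transcripts. Lateral intestine was above non-intestine in all 4 pairs for 1541 of the 1543 raised transcripts and below it for 1148 of the 1149 lowered, beside 25.1% and 32.7% of all tested transcripts. As the same libraries made the calls, these counts describe the calls. Every lateral library lay above every non-intestine library for 1532 raised transcripts, and every lateral library lay below for 1147 lowered transcripts, beside 18.7% and 24.4% of all tested. More than a 2-fold difference in each of the 4 pairs was seen for 1196 raised (77.5%) and 1028 lowered transcripts (89.5%), on the scale of log2 of CPM with 0.5 added, which understates the change of transcripts with few reads. The median log2 ratio of the raised transcripts was 2.01, 2.2, 2.04 and 2.27 in animals 1 to 4, and that of the lowered transcripts was -2.81, -3.07, -2.97 and -3.05. Over all 13136 transcripts the log2 ratios of any 2 animals correlated with Pearson's r between 0.817 and 0.866. These correlations are across transcripts, which are no replicates, and describe the animals only.

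Calls that rested on 3 of the 4 pairs were few and close to the thresholds. DOPEY1 (dd_6117), whose yeast relative acts in traffic between endosomes and Golgi, had 59.0, 25.9, 43.3 and 70.3 CPM in lateral intestine and 24.1, 26.0, 16.4 and 25.6 CPM in non-intestine (log2 fold change of 1.11 with SE 0.28, FDR = 0.00688), so that lateral intestine was not above non-intestine in animal 2. The unnamed dd_11859 had 4.84, 9.02, 2.59 and 0.169 CPM in lateral intestine and 0.232, 0.410, 0.587 and 0.236 CPM in non-intestine (log2 fold change of 3.48 with SE 0.91, FDR = 0.00946) and was lower in lateral intestine of animal 4. Both calls were lost by RLE size factors, at FDR values of 0.0195 and 0.0123, and with the animal as a block, at FDR values of 0.0117 and 0.0331. The unnamed dd_755 was called lowered from 1 count in lateral intestine against 15974 in non-intestine, but its non-intestine libraries stood at 0.863, 86.7, 0 and 416 CPM. Its level in medial intestine was 14.3, 59.9, 0 and 221 CPM, so that the order of the animals was the same in both tissues. By limma-voom dd_755 was far from the threshold, at an FDR of 0.411.

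Other calls held the same direction in all 4 pairs with very different sizes. Transcript dd_7076, without a name, had 2.56, 19.8, 21.2 and 5.61 CPM in lateral intestine and 0.398, 0, 0.489 and 0 CPM in non-intestine (log2 fold change of 5.79 with SE 1.11, FDR = 0.00114), and missed the threshold with the animal as a block in the fit of 8 libraries, at an FDR of 0.0107. The kallikrein match dd_66 (KLK13), a serine protease, had 14.2, 56.9, 59.6 and 18.4 CPM in lateral intestine and 1.20, 0.651, 0.228 and 0.169 CPM in non-intestine (log2 fold change of 6.04 with SE 0.65, FDR = 8.75e-06). In both, lateral replicates 2 and 3 were again above replicates 1 and 4. Among lowered transcripts, dd_68 had 1669, 1923, 1892 and 1968 CPM in non-intestine and 11.2, 114, 2.59 and 12.8 CPM in lateral intestine (log2 fold change of -5.73 with SE 1.46, FDR = 0.00775). The non-intestine libraries of dd_68 lay close together while the lateral ones spread widely, with replicate 2 highest. Its call was lost in 13 of the settings that left out an animal or a library. The highest library of a transcript was not spread evenly over the animals. Lateral replicate 2 was the highest lateral library for 530 raised transcripts (34.3%), beside 27.9% of all tested, and non-intestine replicate 3 was the highest non-intestine library for 609 of 1530 raised transcripts (39.8%), beside 29.8%. Non-intestine replicate 4 was highest for 438 lowered transcripts (38.1%), beside 29.6%. Without lateral replicate 2, 1286 transcripts were raised and 1135 lowered.

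The calls in each direction were spread differently over abundance. Transcripts were ranked by their mean CPM over the 8 libraries and divided into 10 equal classes. In the class with the fewest reads, between 0.350 and 1.27 CPM, 1.14% of transcripts were raised and 9.82% lowered. In the class with the most reads, from 69.7 CPM upward, 25.3% were raised and 12.5% lowered. The share of raised transcripts rose from each class to the next, whereas that of lowered transcripts fell to 4.41% in the fourth class and was 12.0% in the ninth. Raised transcripts were thus 10.4% of the calls in the lowest and 66.9% of those in the highest class. The range of the log2 ratios over the 4 pairs narrowed over the same classes, from a median of 1.91 to a median of 0.633, so that differences among transcripts with many reads were measured more closely.

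**Figure D5:**
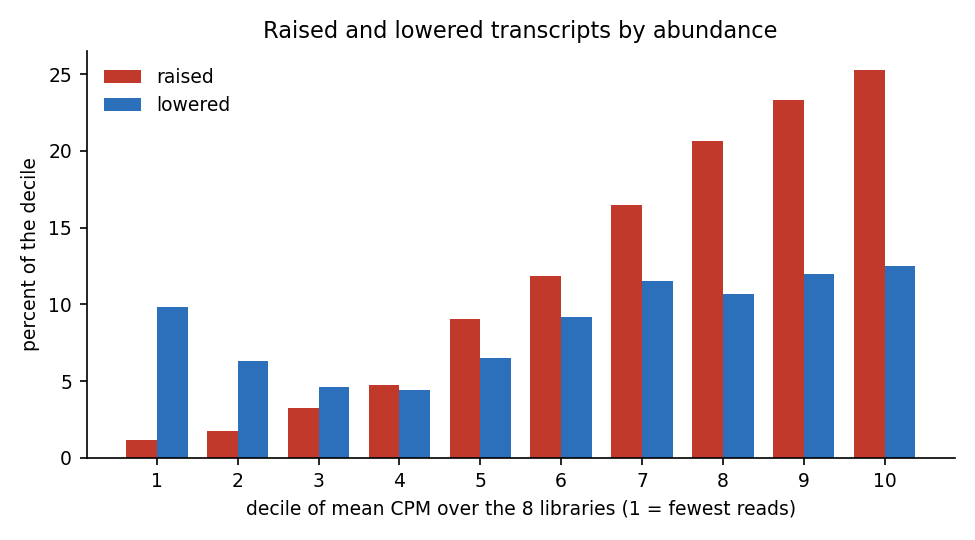
Percent of the transcripts called raised (red bars) and lowered (blue bars) in each of 10 classes of equal size, ordered by the mean CPM over the 8 libraries from the fewest reads (1) to the most (10). The raised share climbs from 1.14% to 25.3%, while the lowered share is 9.82% in the lowest class, 4.41% in the fourth and 12.5% in the highest.

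The level in the tissue where a transcript was lower also differed between the directions. Of the raised transcripts 673 (43.6%) still had at least 10 CPM in non-intestine and 240 (15.6%) less than 1 CPM. For the lowered transcripts the order was the reverse, 253 (22.0%) having at least 10 CPM in lateral intestine and 507 (44.1%) less than 1 CPM. Raised transcripts had a median of 39.6 CPM in lateral intestine and 7.61 CPM in non-intestine, and lowered transcripts had a median of 1.52 CPM in lateral intestine and 23.7 CPM in non-intestine. No count at all was seen in non-intestine for 13 raised transcripts, which were at least 37.5-fold to 434-fold higher in lateral intestine, and none in lateral intestine for 229 lowered transcripts, which were at least 26.6-fold to 860.4-fold lower. A mean of 1000 CPM or more was reached by 53 raised transcripts in lateral intestine and by 20 lowered transcripts in non-intestine.

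Transcripts near the filter were chiefly those of non-intestine. Of the lowered transcripts 382 passed the filter only through the 4 non-intestine libraries, as did 741 of all tested, and these had to be low in the intestine. Only intestinal libraries, medial ones included, carried 146 raised transcripts past the filter, beside 240 of all tested, and these had to be low in non-intestine. Of the raised, 0 passed through the 4 lateral libraries alone. With 1 CPM reached in exactly 4 libraries, 1115 transcripts were just inside the filter, 3 of them raised and 385 lowered, at median levels of 0.222 CPM in lateral intestine and 1.90 CPM in non-intestine. Just outside it were 664 transcripts with exactly 3 such libraries, with a median of 184 counts over the 12 libraries beside 307 for those just inside. Of the lowered transcripts, 307 (26.7%) were called with each animal left out in turn, and 395 (34.4%) when the same transcripts were tested throughout, against 1070 (69.3%) and 1076 (69.7%) of the raised. With an animal left out, between 407 and 674 transcripts were lowered and between 1221 and 1339 raised, and with the same transcripts tested these counts were 516 to 951 and 1226 to 1357. The smallest number of lowered transcripts in both cases was that without animal 3.

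Transcripts were separated by tissue without a call as well. Every lateral library lay above every non-intestine library for 921 transcripts that were not called, with a median of 17.9 CPM and a median log2 fold change of 0.87, of which 200 had an FDR under 0.01 and missed the 2-fold threshold and 297 differed by more than 2-fold. Every lateral library lay below for 2060 uncalled transcripts, with a median of 4.6 CPM and a median log2 fold change of -2.02. Of these, 1566 differed by more than 2-fold but 59 had an FDR under 0.01.

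Whether the calls belong to lateral intestine or to intestine in general was addressed by a direct test of lateral against medial intestine by edgeR's quasi-likelihood test, with thresholds of 0.01 for the FDR and 1.5-fold for the change. Of all tested transcripts 21 (0.16%) were higher in lateral and 17 (0.129%) higher in medial intestine. Among the raised transcripts 8 were higher in lateral and 16 higher in medial intestine, and the median log2 fold change of lateral over medial intestine was -0.07. Most raised transcripts were thus not called different between the regions, which does not show that their levels were the same. DESeq2 gave 13 and 27 transcripts and limma-voom 9 and 24. Among raised and lowered transcripts together, 16 were higher and 16 lower in lateral than medial tissue, and with any of the 4 animals left out these counts were 5 to 11 and 5 to 9.

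The raised transcripts with the largest differences in favour of lateral intestine included secreted proteins. The basement membrane match nid2 had 2039, 1426, 2336 and 1912 CPM in medial intestine against 14143 to 18132 CPM in lateral intestine (log2 fold change of 3.01 with SE 0.30, FDR = 2.62e-04). The unnamed dd_463 had 248, 214, 176 and 326 CPM in medial against 1673, 2622, 1838 and 1502 CPM in lateral intestine (log2 fold change of 2.99 with SE 0.29, FDR = 2.62e-04). The Kunitz-type inhibitor TFPI2 (dd_370) had 257, 197, 272 and 312 CPM in medial against 1211, 1653, 1435 and 1335 CPM in lateral intestine (log2 fold change of 2.44 with SE 0.32, FDR = 0.00216). In none of these did the regions overlap. Unnamed transcripts dd_6318, with a log2 fold change of 3.20, and dd_1401, with 2.36, completed this group. The call of dd_1401 was lost in 9 of 12 fits that left out an animal or a library, that of TFPI2 in 3 and that of dd_6318 in 3, while those of nid2 and dd_463 were lost in 0.

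In the other direction stood a metalloprotease and a serine protease. The metalloprotease cg7631 (dd_254) had 4317, 3644, 5431 and 3738 CPM in medial against 317, 309, 372 and 322 CPM in lateral intestine (log2 fold change of -3.70 with SE 0.37, FDR = 2.80e-04), and 25.1, 21.5, 6.16 and 10.3 CPM in non-intestine. KLK13, given above for its spread over lateral libraries, had 721, 621, 419 and 630.5 CPM in medial intestine (log2 fold change of -4.0 with SE 0.57, FDR = 0.00458). These transcripts were raised in lateral intestine over non-intestine and stood higher still in medial intestine. So did dd_279 and dd_827, both called rpz4 in the study and liable to share reads, with log2 fold changes of -3.50 and -3.53. Calls were lost in 7 of 12 leave-out fits for KLK13, in 2 for dd_827 and in 0 for cg7631 and dd_279.

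Among the lowered transcripts lateral intestine was above medial intestine for 8 and below it for 0 by edgeR's quasi-likelihood test. At an unadjusted p under 0.05 of that test, 179 were higher and 104 lower in lateral intestine. DESeq2 gave 47 higher and 15 lower, and limma-voom 1 and 0. All of those named here lack a name in the study's tables. Transcript dd_451 had 0.596, 0.106, 0.506 and 0.133 CPM in medial, then 37.1, 15.0, 13.1 and 15.9 CPM in lateral intestine and 723, 853, 246 and 769.9 CPM in non-intestine (log2 fold change of 5.90 with SE 0.60, FDR = 2.89e-04 against medial intestine). No count was seen in medial intestine for dd_851, dd_3086 and dd_11685, which were at least 38.1-fold, 30.6-fold and 27.5-fold higher in lateral intestine, with 133, 107 and 96 lateral counts. Their calls were lost with the animal as a block and in 6, 11 and 4 of the 12 leave-out fits. That of dd_451 was lost by limma-voom alone among these alternatives, at an FDR of 0.392. For dd_5823, 119 lateral counts stood against 1 medial count, which as a ratio is 102, the 95% counting interval being 18.0 to 4070.4. Its call was lost without animal 1, 2 or 4, at FDRs of 0.0172 to 0.0359, and by limma-voom, at an FDR of 0.0759. By limma-voom 1 of the lowered transcripts was higher in lateral intestine.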

How the data were processed

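RNA of laser-captured tissue (non-intestine and both regions of intestine) was sequenced from the 3′ end from 5 ng of RNA per library, and groups and replicate numbers were taken from the sample labels. Per the labels and the study's methods, the authors trimmed reads with BBDuk, mapped them with Bowtie2 (version 2.3.1) to the transcripts of the dd_Smed_v6 assembly and deposited raw counts per transcript from SAMtools (version 1.3). The assembly holds transcripts without chromosome positions, and no sequence or genome was used here. The deposited TPM values, which the authors derived from counts with edgeR (version 3.8.6) and transcript lengths, served in an alternative filter only. Columns with the authors' own fold changes, test statistics and FDR values were not used, and 0 columns of single libraries in the table of counts were left out.

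Counts were fitted with edgeR (version 4.0.16, R version 4.3.3) with 1 term per tissue over all 12 libraries, so that the tissues share an estimate of the spread, after TMM scaling and a filter of at least 1 CPM in at least 4 libraries. Kept transcripts held 99.7 to 99.91% of the counts. The quasi-likelihood test was used with Benjamini-Hochberg adjustment, and standard errors were computed from the fold change and the F statistic. Calls needed an FDR below 0.01 together with a more than 2-fold change, or 1.5-fold against medial intestine. Where a tissue had no counts, fold changes were replaced by bounds from a floor of 3 counts over its 4 libraries, and with 1 count by a ratio of pooled counts with an exact 95% interval. Without molecular identifiers, these cover counting error only.

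Libraries of the same number came from the same animal by the study's methods. Deviations from the tissue means correlated between same-numbered lateral and non-intestine libraries at 0.0774 to 0.217, against -0.204 to 0.157 for different animals. Since the numbers mark animals, the fit with the animal as a block was an alternative to the fit without it, which follows the study. Other alternatives were RLE size factors, no TMM scaling, TMM without the 20 most abundant transcripts, other filters and thresholds, edgeR's likelihood ratio test and glmTreat, DESeq2 (version 1.42.0), limma-voom (limma version 3.58.1), a fit of the 8 libraries alone and leaving out each animal or library.

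Transcripts were named by rule. For raised and for lowered transcripts these were the 6 that changed most among those with at least 10 CPM in the higher tissue and the same direction in all pairs, the 6 such that have a name, the 5 with the most reads, the 3 of each gene list with the most reads, the cell type markers, the 3 with the most reads that differed in direction in a pair, the 3 with the widest range over pairs, and the 5 with the largest difference from medial intestine. Others were chosen after their values were seen. Some transcripts that meet the rule are not reported here. The comparison, the members and the gene lists were chosen with earlier results of these data known.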

Additional observations from a re-analysis of the deposited data

Results flagged for a closer look

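In 15 of the 212 sets of 4 libraries of a tissue that the 106 named transcripts give, 1 library stood far from the other 3 by Dixon's test on the log2 scale. Chance flags about 1 in 20 such sets. Several of them differ only by a few counts. Non-intestine replicate 4 had 0.0337 CPM of SLC39A1 (dd_10160), lateral replicate 4 had 0.0422 CPM of dd_1041 and lateral replicate 3 had 0.0370 CPM of dd_755, each with no counts in the other 3 libraries. Lateral replicate 2 had 0.376 CPM of ZMYND12 (dd_10079) and 0.141 CPM of PAX5 (dd_10219), where the other lateral libraries had none. It had 0 CPM of the homeobox match LHX2 (dd_15144), where the others had 0.844 to 1.04 CPM, and 0.0940 CPM of dd_518, where the others had 0.0370 to 0.0456 CPM.

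Among transcripts with more reads, lateral replicate 2 was high for GRM3 (dd_10130), at 24.5 CPM beside 16.6 to 16.9 CPM. It was low for CTSV (dd_175), at 547 CPM beside 903 to 999.7 CPM, and for both rpz4 transcripts, at 351 CPM beside 533 to 578 CPM for dd_279 and at 206 CPM beside 297 to 308 CPM for dd_827. In non-intestine, replicate 2 had 15.3 CPM of CADPS2 (dd_11725) beside 17.3 to 17.6 CPM and 2908 CPM of dd_80 beside 2655 to 2694 CPM. Non-intestine replicate 3 had 246 CPM of dd_451 beside 723 to 853 CPM, and non-intestine replicate 4 had 134 CPM of the proteasome gene PSMC1 (dd_1222) beside 89.2 to 94.9 CPM.

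The difference from non-intestine was not the same in lateral and medial intestine for 15 of the transcripts that the rule named and for GM2A (dd_214_1_1), which was named after its values were seen, by edgeR's quasi-likelihood test of lateral against medial intestine with Benjamini-Hochberg adjustment. As log2 fold changes of lateral over medial intestine, they were 3.20 for dd_6318, 3.01 for nid2 (dd_25), 2.99 for dd_463, 2.44 for TFPI2 (dd_370), 2.36 for dd_1401, 2.35 for the goblet cell marker spint3 (dd_300) and 5.90 for dd_451. They were -4.0 for KLK13 (dd_66), -3.70 for cg7631 (dd_254), -3.53 for dd_827, -3.50 for dd_279 and -2.17 for GM2A. Transcripts dd_851, dd_3086 and dd_11685 had no medial counts and were at least 38.1-fold, 30.6-fold and 27.5-fold higher in lateral intestine, and the ratio of pooled counts of dd_5823 was 102.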

How the results depend on the processing

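The 1543 raised transcripts became 930 without TMM scaling and 963 by glmTreat, and the 1149 lowered became 2207 without TMM scaling, 743 by glmTreat and 2115 by limma-voom. The share of calls that were raised, 57.3%, was 29.6%, 46.4% and 42.5% without TMM scaling, by DESeq2 and by limma-voom, and up to 75.1% with an animal left out. Without TMM scaling the median log2 fold change of all transcripts moved from -0.12 to -0.77. With the animal as a block over 12 libraries 1478 transcripts were raised and 996 lowered, of which 1457 and 867 were also called without the block, and the fit of 8 libraries with the block gave 1508 and 1273. The block moved neither count by more than 1.5 times, and the calls and list counts it changed beyond that are given with them above. Leaving out an animal or a library gave 1221 to 1523 raised and 407 to 1135 lowered transcripts. Without animal 3, 752 lowered transcripts were lost, 390 of them because they no longer passed the filter. With the filter kept from the 12 libraries, an alternative chosen after seeing the data, 1226, 1357, 1242 and 1292 were raised and 564, 951, 516 and 764 lowered without animals 1 to 4. In the direct test against medial intestine, the count of called transcripts higher in lateral intestine, 16, became 78 by the likelihood ratio test, 82 by DESeq2, 10 by glmTreat, 31 at an FDR under 0.05 and 5 to 16 with an animal or a library left out. The count of those lower, also 16, became 46 by the likelihood ratio test, 50 by DESeq2 and 5 to 16 with an animal or a library left out. With the filter kept, leaving out an animal gave 1 to 9 and 2 to 8. The counts by the likelihood ratio test and DESeq2 are not confined to the 1543 raised and 1149 lowered transcripts. Among these, the likelihood ratio test gave 10 raised and 47 lowered transcripts that were higher in lateral intestine, and 22 and 19 that were lower. DESeq2 gave 13 and 47 that were higher, and 27 and 15 that were lower. Without dd_1, raised transcripts held 35.5% and lowered transcripts 1.95% of lateral counts. No called result changed direction under any alternative run, while the medians of 4 gene lists near 0 turned negative with RLE size factors or without TMM scaling. Of the lowered transcripts 507 had less than 1 CPM in lateral intestine, where depth limits their fold, and where a tissue had no counts the fold is a bound.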
